A study of Homo sapiens with 6 samples.

Results

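Complement is a cascade of plasma proteins that marks surfaces for removal and can lyse cells, and 9 of its genes are described here in CCD18Co, an established line of fibroblasts from normal human colon. The genes were chosen by name from the deposited table of 60663 genes. They are the proteases *C1R* and *C1S*, the central component *C3*, the alternative pathway protease *CFB*, the terminal component *C7*, the secreted inhibitor *SERPING1*, and the membrane regulators *CD46*, *CD55* and *CD59*. The cells received pooled siRNAs that target *LTBP2* (siLTBP2) or pooled siRNAs without a target (siNT) and were harvested for RNA 48 h later. *LTBP2* encodes a matrix protein that binds fibrillin, and it was silenced to learn what it does in fibroblasts. Each group has 3 libraries, numbered 1 to 3, and all come from this one line with one pool against *LTBP2*. The labels do not say whether the libraries of a group came from separate cultures, so the p-values measure only the spread between these libraries.

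Complement is started by 3 routes. In the classical route, C1q bound to antibody activates C1r, which cleaves C1s, and in the lectin route sugar-binding collectins and ficolins work with the MASP proteases. The alternative route amplifies cleaved C3 through factor B. All routes meet at C3, the later components from C5 to C9 build a pore in the membrane, and host cells carry regulators that stop the cascade at their own surface. The liver makes most plasma complement, and fibroblasts are a known local source of C1r, C1s and C3.

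The libraries held between 44663424 and 53576899 counted reads. Levels are given as CPM, the reads of a gene scaled to a common library total after TMM normalization, and a gene was said to rise or fall when its adjusted p in edgeR's quasi-likelihood test over 16920 genes was below 0.05. *LTBP2* was at 25.0, 23.1 and 21.2 CPM in replicates 1 to 3 of siNT and at 6.49, 8.61 and 6.00 CPM in those of siLTBP2. It was left at 30.4% of its siNT level (log2 fold change -1.72 with a standard error, SE, of 0.15, edgeR adjusted p = 6.6e-05), with no overlap between the groups. All 10 fibroblast markers examined were expressed, with a summed level of 5441 to 7989 CPM in siNT and 4711 to 8156 CPM in siLTBP2. One of them, the receptor gene *PDGFRB*, fell (log2 fold change -0.60). Of 9 epithelial markers, the defining gene *EPCAM* had between 0 and 2 reads in every library, while the keratin gene *KRT18* rose (log2 fold change 1.15). The keratin gene *KRT8* did not pass (log2 fold change 0.32, edgeR adjusted p = 0.085), and the remaining markers had at most 14 reads in any library. The summed epithelial level was thus 40.3 to 52.8 CPM in siNT and 85.9 to 99.4 CPM in siLTBP2, and its part in the results below was not tested. The summed endothelial level was 67.5 to 83.6 CPM in siNT and 59.9 to 74.3 CPM in siLTBP2, nearly all of it from *TEK*. *VWF* had 85, 73 and 77 reads in siNT and 48, 52 and 37 in siLTBP2, and did not pass (log2 fold change -0.71). *PECAM1*, *CDH5*, *KDR* and *CLDN5* had 0 to 12 reads in any library. The leukocyte and hepatocyte markers summed to at most 0.613 and 0.138 CPM in any library. As the RNA is from whole cultures, more RNA per cell and more cells expressing a gene cannot be told apart.

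Of the 9 complement genes, 6 had enough reads to be tested and 3 did not (*CFB*, *C7* and *SERPING1*). *CD59* rose and no gene fell. One of 6 is 16.7%, where 19.3% of all genes tested passed in either direction, 9.76% passed upward and 9.51% downward, so the share was near that of all genes. The median log2 fold change was -0.05 over the 6 genes and -0.01 over all genes tested. None of the 6 passed the study's thresholds for a deregulated gene, an adjusted p below 0.01 and more than 2-fold, which 2.57% of all genes passed.

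**Figure D1:**
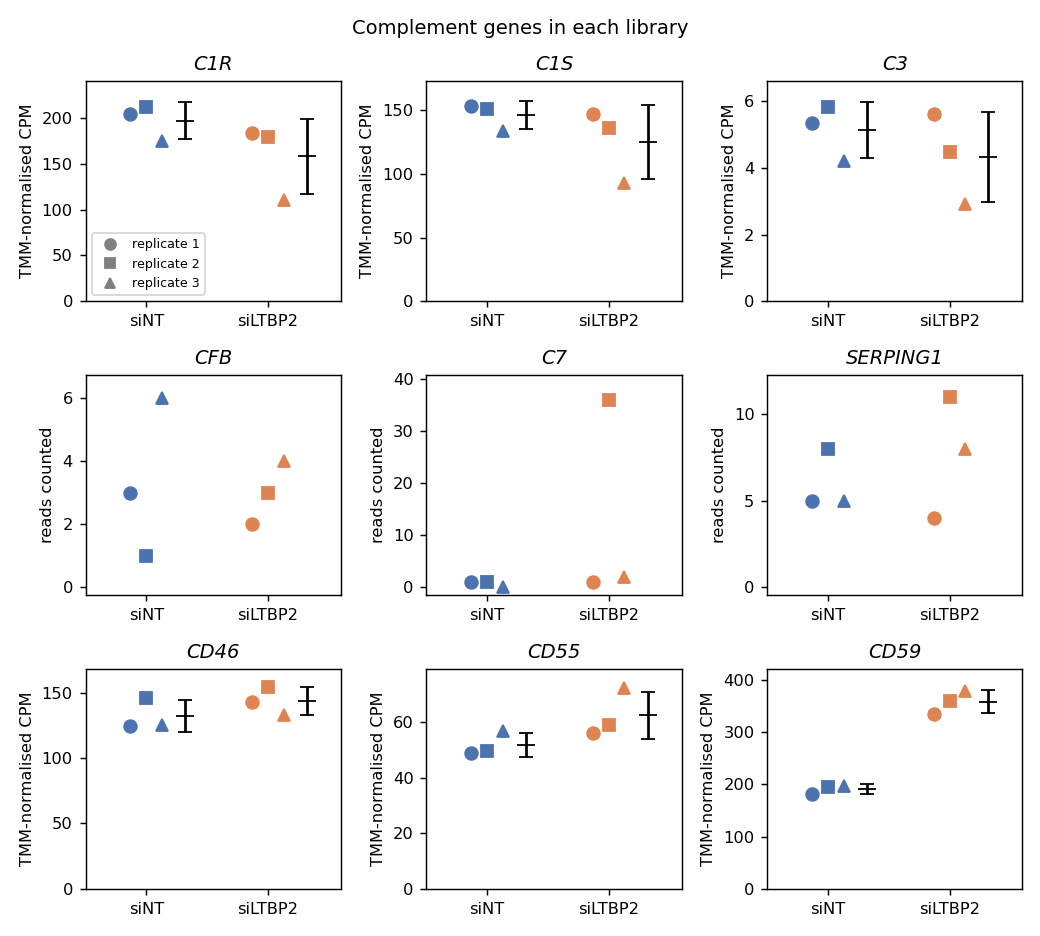
Levels of the 9 complement genes in the 3 siNT and 3 siLTBP2 libraries, as TMM-normalized CPM for the 6 genes tested and as reads counted for *CFB*, *C7* and *SERPING1*. Symbols mark the replicate, black bars are the mean and SD of the 3 libraries, and *CD59* is the gene whose groups stand clear of each other.

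Of the membrane regulators, *CD59* rose while *CD46* and *CD55* did not pass the test. CD59 is a small protein held on the membrane by a GPI anchor, a glycolipid tail, and it blocks the insertion of C9 into the lytic pore. *CD59* (ENSG00000085063) maps to chromosome 11 of GRCh38 (33703010 to 33736479, minus strand), and GENCODE 44 gives 4 exons for the canonical transcript. Its level in siNT was 181, 196 and 197 CPM in replicates 1 to 3. In siLTBP2 it was 335, 360 and 379 CPM. Every siLTBP2 library lay above every siNT library, as was so, in either direction, for 37% of all genes tested. The mean went from 191 ± 9.06 to 358 ± 22.0 CPM (SD, n = 3). This is a 1.87-fold rise, with a 95% interval from 1.64 to 2.15 (log2 fold change 0.91, SE 0.09, edgeR adjusted p = 0.00012). *CD59* stood at rank 104 of all genes by p-value. Its log2 fold change stayed between 0.86 and 0.95 under the 14 alternatives run, with an adjusted p of at most 0.0014. The gene ENSG00000284969 on the same strand shares 629 bases of its exons and had 29 reads in all libraries together.

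CD55 also has a GPI anchor, and it speeds the decay of the enzymes that cleave C3 and C5. *CD55* (ENSG00000196352) is on the plus strand of chromosome 1, from 207321519 to 207386804, with 10 exons. It was at 49.1, 49.6 and 57.0 CPM in siNT and at 56.3, 59.0 and 72.3 CPM in siLTBP2. The highest siNT library lay just above the lowest siLTBP2 library, so the groups overlapped. The fold was 1.20 with a 95% interval from 1.02 to 1.43 before adjustment, and the adjusted p was 0.12. *CD55* passed in the alternative that also modelled the replicate number (edgeR adjusted p = 0.0046).

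CD46 spans the membrane and is a cofactor for the protease that inactivates C3b and C4b. *CD46* (ENSG00000117335) lies further along the same strand of chromosome 1, from 207752037 to 207795513, with 13 exons. Its 3 siNT libraries had 125, 146 and 125 CPM and its siLTBP2 libraries 143, 154 and 133 CPM. The groups overlapped, and the fold of 1.09 had a 95% interval from 0.94 to 1.26 (edgeR adjusted p = 0.43). A change of *CD46* as large as that of *CD59* lies outside this interval. Exons of the noncoding gene *MIR29B2CHG* on the opposite strand cover 797 bases of those of *CD46*, and it had 859 reads in all libraries together.

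Ratios of reads within a library do not depend on the scaling between libraries, and 3 were taken after the levels had been seen. *CD59* had 3.67, 3.95 and 3.45 reads for each read of *CD55* in siNT and 5.95, 6.11 and 5.24 in siLTBP2. Against *CD46* it had 1.45, 1.34 and 1.57 in siNT and 2.34, 2.34 and 2.85 in siLTBP2. Both ratios were higher in every siLTBP2 library than in any siNT library. The exact permutation test, two-sided, gave p = 0.1 for each, the smallest p that 3 libraries against 3 allow, and 0.15 adjusted over the 3 ratios.

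The promoters of the membrane regulators are shown here because *CD59* rose and the other 2 did not pass the test, followed by that of *C1R*. They are RefSeq sequences of GRCh38.p14, from 250 bases before to 50 after the RefSeq start of transcription, found for 6 of the 9 genes. Where a gene had several entries the one nearest the GENCODE start was taken. The RefSeq start lay more than 50 bases inside the GENCODE gene for *CD55* (207321678 against 207321519), *C1R* (7092445 against 7092540, minus strand) and *CFB* (31946095 against 31945650). Capitals mark the GC box GGGCGG on either strand, a motif bound by Sp1.
CD59, chr11:33736430-33736729, minus strand: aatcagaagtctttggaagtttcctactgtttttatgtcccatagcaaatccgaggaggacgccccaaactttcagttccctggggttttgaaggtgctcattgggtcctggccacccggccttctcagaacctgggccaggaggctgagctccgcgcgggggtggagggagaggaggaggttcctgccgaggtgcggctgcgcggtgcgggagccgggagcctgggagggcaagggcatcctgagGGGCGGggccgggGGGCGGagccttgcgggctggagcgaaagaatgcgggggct
CD55, chr1:207321428-207321727, plus strand: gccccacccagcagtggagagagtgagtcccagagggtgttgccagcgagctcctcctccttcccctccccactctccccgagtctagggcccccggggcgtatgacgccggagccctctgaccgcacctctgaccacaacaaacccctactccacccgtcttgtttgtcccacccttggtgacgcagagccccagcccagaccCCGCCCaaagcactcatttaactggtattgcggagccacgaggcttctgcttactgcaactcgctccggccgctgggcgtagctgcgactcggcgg
CD46, chr1:207751788-207752087, plus strand: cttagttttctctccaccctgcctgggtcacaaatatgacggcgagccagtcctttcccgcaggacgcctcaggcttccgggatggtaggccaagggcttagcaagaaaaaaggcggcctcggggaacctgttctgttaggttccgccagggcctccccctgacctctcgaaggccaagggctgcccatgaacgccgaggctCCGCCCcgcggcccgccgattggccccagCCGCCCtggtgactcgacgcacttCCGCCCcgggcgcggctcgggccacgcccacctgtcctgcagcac
C1R, chr12:7092396-7092695, minus strand: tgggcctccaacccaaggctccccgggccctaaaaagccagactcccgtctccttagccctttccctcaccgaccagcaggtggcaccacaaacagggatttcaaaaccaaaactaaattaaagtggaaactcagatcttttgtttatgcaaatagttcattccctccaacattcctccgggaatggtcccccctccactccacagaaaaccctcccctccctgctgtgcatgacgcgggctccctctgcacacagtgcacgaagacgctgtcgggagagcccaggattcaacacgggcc
The window held 2 GC boxes in *CD59*, 1 in *CD55*, 3 in *CD46* and 0 in *C1R*. A GC box was in 45.0% of the 35116 promoters of the table, so its presence is common. On both strands, and with letters that may be shared between motifs, the NF-kB word, GGGA and CC with any 4 bases between them (25.6% of all promoters) was found once in *C1R* and in none of the membrane regulators. The STAT word TTCNNNGAA (7.66% of all promoters) was found once in *CD59* and in none of the other 3 shown. The promoters of *C7* and *CFB*, not shown, each held it once too, and that of *CFB* held the NF-kB word 2 times. The C/EBP word TTNNGNAA (36.8%) was found 2 times in *C1R* and in none of the membrane regulators.

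The proteases *C1R* and *C1S* were well expressed. C1r and C1s form the enzymatic core of C1 and are made as proenzymes. *C1R* (ENSG00000159403) is on the minus strand of chromosome 12, from 7080214 to 7092540, with 11 exons, and *C1S* (ENSG00000182326) on the plus strand, from 6988259 to 7071032, with 12 exons. *C1R* had 205, 212 and 174 CPM in siNT and 183, 180 and 111 CPM in siLTBP2. *C1S* had 154, 151 and 134 CPM in siNT and 147, 136 and 92.4 CPM in siLTBP2. For both genes the groups overlapped, and replicate 3 was the lowest library of each group.

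Neither protease passed the main test, though *C1R* passed with no low-count filter (edgeR adjusted p = 0.016, range over its alternatives 0.0010 to 0.54). Both passed in the alternative that also modelled the replicate number (edgeR adjusted p = 0.0010 for *C1R* and 0.014 for *C1S*). For *C1R* the log2 fold change was -0.32 with a 95% interval from -0.69 to 0.05 (edgeR adjusted p = 0.22). For *C1S* it was -0.23 with an interval from -0.55 to 0.10 (edgeR adjusted p = 0.33). The size depends on replicate 3, the lowest library of each group. Without that of siLTBP2 the log2 fold changes were -0.12 and -0.05, and without that of siNT -0.40 and -0.28. Both genes were lower in siLTBP2 for each replicate number. There were 1.33, 1.41 and 1.304 *C1R* reads per *C1S* read in siNT and 1.25, 1.32 and 1.20 in siLTBP2, and these ranges overlapped (exact permutation test, two-sided, p = 0.2, and 0.2 adjusted over the 3 ratios). *C1R* shares 672 bases of its exons, 11.6%, with its neighbour *C1RL* on the same strand, so part of their reads could not be assigned with certainty.

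*C3* (ENSG00000125730), whose cleavage is the step where all routes meet, lies on the minus strand of chromosome 19, from 6677704 to 6730562, with 41 exons. It had 248, 288 and 227 reads in siNT and 245, 212 and 154 in siLTBP2. In CPM this is 5.36, 5.83 and 4.21 in siNT and 5.62, 4.48 and 2.92 in siLTBP2. The groups overlapped, and replicate 3 was again the lowest library of each. The log2 fold change was -0.25 with a 95% interval from -0.75 to 0.26 (edgeR adjusted p = 0.51). It was -0.02 without siLTBP2 replicate 3 and -0.37 without siNT replicate 3. A fall of *C3* to 59.4% of siNT or a rise to 1.20-fold is within the interval.

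Per kilobase of canonical transcript, the 6 tested genes differed widely in level. In siNT the level was 79.2 ± 8.08 CPM per kilobase for *C1R* and 54.5 ± 4.01 for *C1S* (SD, n = 3). It was 39.7 ± 3.67 for *CD46*, 25.3 ± 1.20 for *CD59*, 20.05 ± 1.71 for *CD55* and 0.982 ± 0.160 for *C3* (SD, n = 3, CPM per kilobase). No neighbours in this order overlapped between their siNT libraries. In siLTBP2 *CD59* reached 47.4 ± 2.91 CPM per kilobase (SD, n = 3), and its libraries overlapped those of *CD46*, *C1S* and *C1R*. The order depends on the length used: per kilobase of all annotated exons, *CD59* (18.1) had a mean between those of *C1R* (34.0) and *C1S* (17.6) in siNT, and its libraries overlapped those of *C1S*.

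*CFB*, *C7* and *SERPING1* were near the floor of the measurement. Factor B is cleaved to form the protease of the alternative pathway. *CFB* (ENSG00000243649, chromosome 6, 31945650 to 31952086) had 3, 1 and 6 reads in siNT and 2, 3 and 4 in siLTBP2. The gene ENSG00000244255 on the same strand, with 0 reads in every library, overlaps 42.3% of its exons, so the count of *CFB* is uncertain there. SERPING1, the C1 inhibitor, blocks C1r and C1s and the MASP proteases. *SERPING1* (ENSG00000149131, chromosome 11, 57597387 to 57619171) had 5, 8 and 5 reads in siNT and 4, 11 and 8 in siLTBP2, at most 0.233 CPM. Per kilobase of canonical transcript its siNT mean was 0.0661 CPM, against 79.2 and 54.5 for *C1R* and *C1S*, the genes of its target proteases. The groups overlapped for both genes and no difference was detectable at this depth.

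C7 joins C5b and C6 and anchors the growing pore in the membrane. *C7* (ENSG00000112936) is on the plus strand of chromosome 5, from 40909492 to 41020216, with 18 exons. It had 1, 1 and 0 reads in siNT and 1, 36 and 2 in siLTBP2. The 36 reads of siLTBP2 replicate 2 make up nearly all of the 41 reads of the series. With no low-count filter the edgeR adjusted p of *C7* was 7.2e-06, and it was 0.77 when siLTBP2 replicate 2 was also left out.

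The library that held *C7* stood apart in other genes too. In siLTBP2 replicate 2, 38 genes outside the Y chromosome had at least 10 reads and at most 2 in each of the other libraries, while the other 5 libraries had between 0 and 5 such genes. The first was *CTSG*, a protease of neutrophil granules, with 156 reads against 0 in every other library. Next came *CYP11B1*, which makes cortisol in the adrenal cortex, with 114 reads against 0. *PRTN3*, another neutrophil protease, had 87. The steroid enzyme genes *CYP17A1*, *HSD3B2* and *CYP21A2* had 35, 30 and 20 reads, and *C7* ranked 7 in this list. *CFD*, the gene of the protease factor D that cleaves factor B, was in it too, with 10 reads against at most 1. The 38 genes had 1045 reads in that library, 21.9 CPM before normalization, and between 7 and 16 in each other library. Whether the *C7* and *CFD* reads share an origin with the adrenal and myeloid genes was not tested. *CD59* does not rest on this library, since its log2 fold change without it was 0.90 (edgeR adjusted p = 0.0014).

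**Figure D2:**
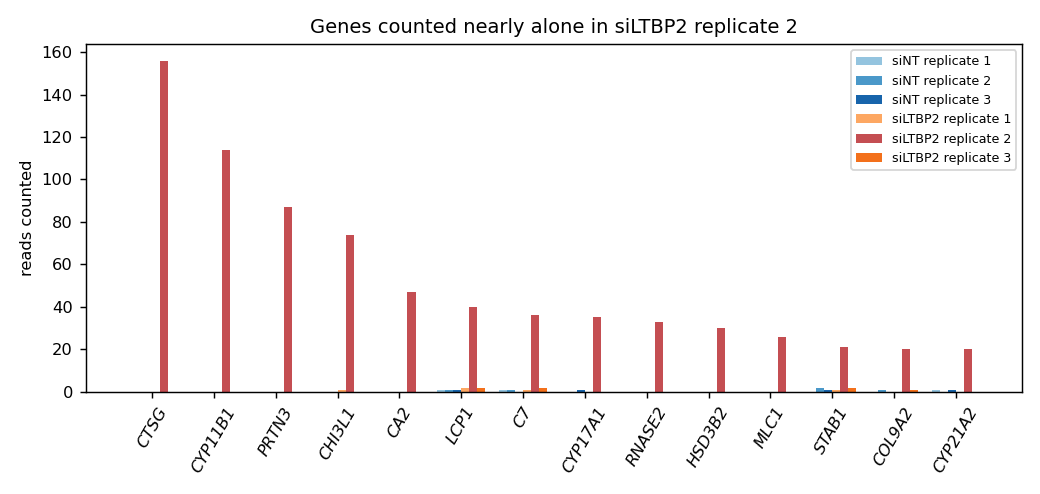
Reads counted in each of the 6 libraries for the 14 genes with most reads among those counted nearly alone in siLTBP2 replicate 2. *C7* stands at 36 reads in that library and at 0 to 2 in the others, beside neutrophil and adrenal genes.

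The rest of the complement system was taken as a list of 48 genes. Of these, 15 were tested, 33 had too few reads, and 14 of the 33 had no read in any library, *CR1*, *CR2*, *C6* and *MBL2* among them. A count of 0 allows up to 3 reads, or 0.0556 to 0.0688 CPM. Of the 15, *SUSD4* and *C5* rose and *MASP1* fell, which is 20% of them beside 19.3% of all genes, and their median log2 fold change was -0.06. Without siNT replicate 1 only *SUSD4* was left.

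SUSD4 is a membrane protein with complement control domains and has been described as a complement inhibitor. *SUSD4* had 32, 37 and 42 reads in siNT and 115, 131 and 163 in siLTBP2. The groups were far apart, with a mean of 0.740 ± 0.0442 CPM against 2.83 ± 0.234 CPM (SD, n = 3), a 3.82-fold rise (log2 fold change 1.93, SE 0.19, edgeR adjusted p = 0.00015). It was the only tested gene of the list that also passed the study's thresholds, and it passed the test under all 14 alternatives.

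*C5*, whose product starts the pore and releases the anaphylatoxin C5a, was at 6.92, 12.2 and 7.62 CPM in siNT and at 14.9, 17.0 and 13.4 CPM in siLTBP2. The groups did not overlap, and *C5* rose by 0.76 on the log2 scale (SE 0.20, edgeR adjusted p = 0.021). The call was lost without replicate 1 (0.61) or 3 (0.66) of siNT or replicate 2 of siLTBP2 (0.66). Exons of *CNTRL* on the opposite strand cover 408 bases of those of *C5*. *MASP1*, which encodes proteases of the lectin pathway, was at 174, 181 and 118 CPM in siNT and at 98.8, 99.9 and 46.2 CPM in siLTBP2. Here too the groups did not overlap, replicate 3 was the lowest of each group, and *MASP1* fell by 0.95 on the log2 scale (SE 0.26, edgeR adjusted p = 0.026). The call was lost without replicate 1 (-0.88) or 2 (-0.84) of siNT.

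The other tested genes of the system did not pass. *CLU*, which encodes the fluid-phase pore inhibitor clusterin, was at 176 ± 21.9 CPM against 144 ± 26.7 CPM after silencing (SD, n = 3, edgeR adjusted p = 0.18). With no low-count filter it passed (0.034, range over its alternatives 0.0030 to 0.45). *COLEC10*, a collectin that recognises sugars, was at 271 ± 13.9 CPM against 259 ± 26.7 CPM after silencing (SD, n = 3, edgeR adjusted p = 0.70). Per kilobase of canonical transcript its siNT mean was 86.6 CPM, beside 79.2 for *C1R*. The protease gene *C2* had a log2 fold change of 0.87 (edgeR adjusted p = 0.088). The pore inhibitor gene *VTN* had one of -1.07 (edgeR adjusted p = 0.086), and it passed under 5 of its 13 alternatives, among them the likelihood ratio test (0.044), DESeq2 (0.040), no low-count filter (0.0015) and leaving out replicate 3 of siNT (0.021), with a range over all of them from 0.0011 to 0.28. *C3AR1*, the gene of the receptor for the C3 fragment C3a, was low, with 43 to 93 reads per library. *C4A* and *C4B* are near-identical copies whose reads cannot be split with certainty, and they had 11 to 70 reads per library.

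**Figure D3:**
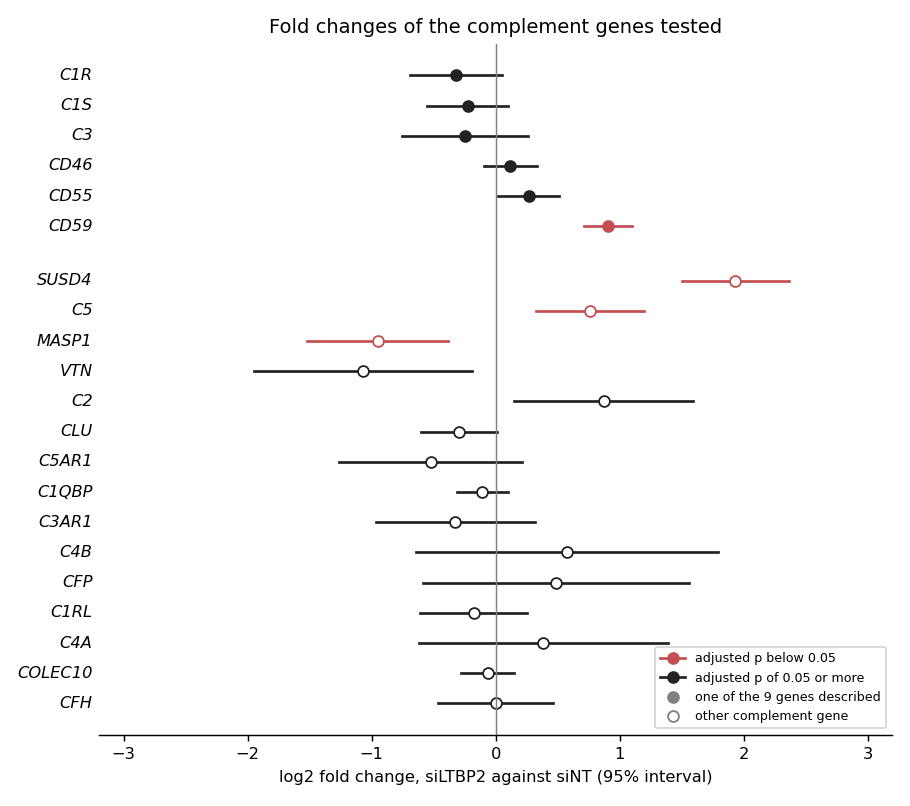
Log2 fold change of siLTBP2 against siNT with its 95% interval, before adjustment, for the 6 tested members (filled) and the 15 tested other complement genes (open). *CD59*, *SUSD4* and *C5* lie above 0 and *MASP1* below it with an adjusted p below 0.05.

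Complement genes are induced by cytokines such as IL-6, IL-1, TNF and interferons, through STAT, C/EBP and NF-kB factors. A list of 30 such cytokines, receptors and factors, called inducers here, also held inhibitors of these routes such as *SOCS3*. Of its 26 tested genes, 4 rose and 3 fell. This is 26.9%, beside 19.3% of all genes, with a median log2 fold change of 0.07. Of the cytokine genes on the list, *IL6* and *LIF* fell, *IL1B* did not pass (log2 fold change -0.43, edgeR adjusted p = 0.20), and *IL1A*, *TNF*, *IFNB1* and *IFNG* had at most 7 reads in any library.

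*IL6* was at 25.0, 32.4 and 32.7 CPM in siNT and at 6.40, 7.91 and 9.55 CPM in siLTBP2. It fell to 26.6% of siNT (log2 fold change -1.91, SE 0.16, edgeR adjusted p = 5.7e-05). *LIF*, a cytokine of the same family, fell from 177 ± 9.86 CPM to 65.6 ± 8.97 CPM (SD, n = 3, log2 fold change -1.43, edgeR adjusted p = 3.5e-05). Both were clear of overlap and passed under all 14 alternatives.

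The receptor gene *OSMR* rose by 0.49 on the log2 scale (edgeR adjusted p = 0.0046), *CEBPB* by 0.59 (edgeR adjusted p = 0.015) and the feedback inhibitor *SOCS3* by 0.60 (edgeR adjusted p = 0.0026), and these 3 calls also held under all 14 alternatives. *STAT3* rose by 0.33 (edgeR adjusted p = 0.035) and the NF-kB subunit gene *NFKB2* fell by 0.37 (edgeR adjusted p = 0.024). The *STAT3* call was lost when replicate 2 or 3 of siNT (0.30 for each) or replicate 1 (0.28) or 2 (0.30) of siLTBP2 was left out. That of *NFKB2* was lost without replicate 3 of siNT (-0.29) and without replicate 1 (-0.33) or 2 (-0.36) of siLTBP2.

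CD55 and CD59 reach the cell surface only on a GPI anchor, so the genes that build, attach and remodel it were examined. Of 29 such genes 28 were tested, 2 rose and 3 fell, which is 17.9% beside 19.3% of all genes, with a median log2 fold change of 0.05. *PIGV*, the enzyme that adds the second mannose, rose from 11.96 ± 0.834 to 20.2 ± 2.09 CPM (SD, n = 3, log2 fold change 0.76, edgeR adjusted p = 0.0014). *PIGA*, part of the enzyme of the first step, rose by 0.61 on the log2 scale (edgeR adjusted p = 0.020). *PIGZ*, which adds a side mannose, fell from 1.72 ± 0.388 to 0.594 ± 0.200 CPM (SD, n = 3, log2 fold change -1.53, edgeR adjusted p = 0.0044).

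*DPM3*, a subunit of the mannose donor enzyme, had a log2 fold change of -0.53 (edgeR adjusted p = 0.020), and *PGAP3*, which trims the anchor's lipid, one of -0.41 (edgeR adjusted p = 0.043). The calls of *PIGV* and *PIGZ* held under all 14 alternatives. *PIGA* lost its call without siNT replicate 1 (0.49), siLTBP2 replicate 2 (0.63) or siLTBP2 replicate 3 (0.50), and *DPM3* without siNT replicate 2 (-0.47) or siLTBP2 replicate 2 (-0.49). *PGAP3* lost it without any 1 library except siLTBP2 replicate 2, with log2 fold changes from -0.45 to -0.34.

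**Figure D4:**
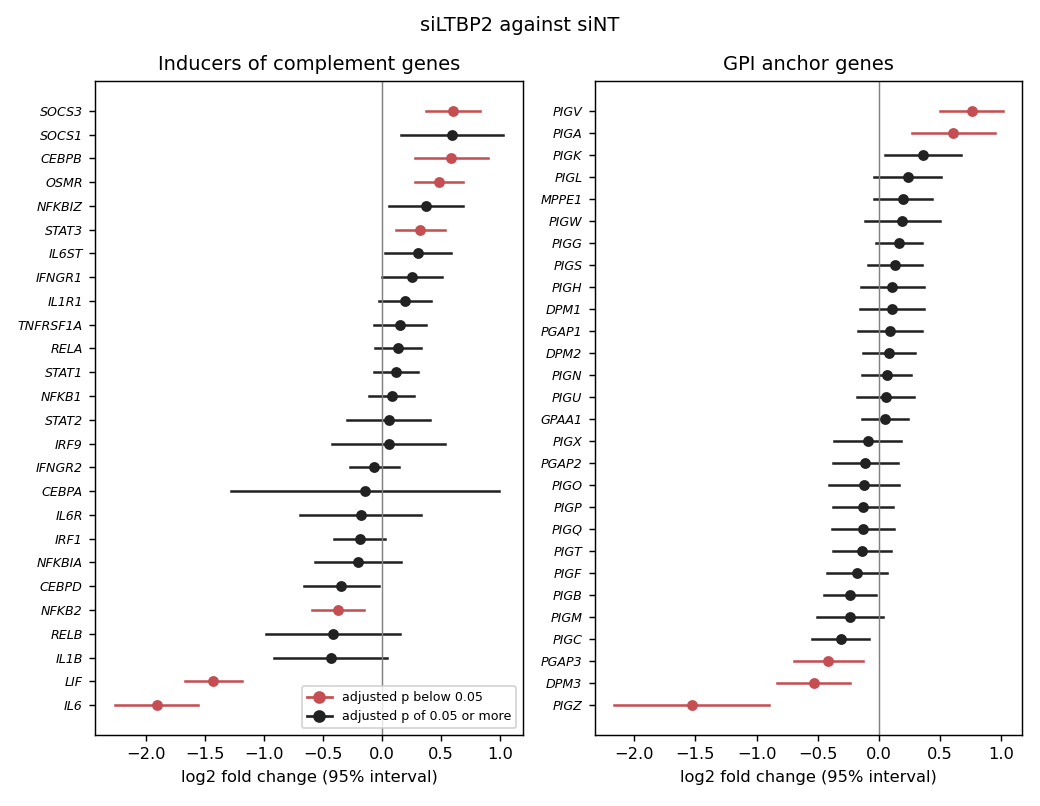
Log2 fold change of siLTBP2 against siNT with its 95% interval, before adjustment, for the 26 tested genes of the inducer list, inhibitors such as *SOCS3* included (left), and the 28 tested GPI anchor genes (right), ordered by fold change. *IL6* and *LIF* lie lowest on the left, while *PIGV* lies highest and *PIGZ* lowest on the right.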

How the data were processed

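Ribosomal RNA was depleted from total RNA of CCD18Co and 6 stranded libraries were sequenced (3 siNT and 3 siLTBP2). The authors aligned read pairs with STAR (GRCh38) and counted them per gene with HTSeq, and their deposited values are unnormalized counts. The submitters' processing notes name STAR 2.7.1a and HTSeq 0.11.2. Not given in the sources used here are the Ensembl release, the strand setting and the treatment of ambiguous reads, so counts of overlapping genes are uncertain. Of 60663 genes, 60462 are in GENCODE 44, used for coordinates and lengths.

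Counts were filtered with filterByExpr, scaled by TMM and tested with edgeR 4.0.16 in R 4.3.3 (glmQLFit and glmQLFTest, two-sided, no block), with Benjamini-Hochberg adjustment over all genes. The study's likelihood ratio test was an alternative. Each standard error is the size of the log2 fold change over the root of its F statistic, and 95% intervals use the test's degrees of freedom. Limits from counts of 0 cover counting error only. Alternatives were the likelihood ratio test, DESeq2 1.42.0, other scalings and filters, the replicate block and leaving out each library.

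The complement genes and the lists were chosen with earlier results of these data known. Named were the 9 complement genes, *LTBP2* and, of each list, the genes that passed, receptors or partners of a complement gene, and up to 6 genes of smallest p. *COLEC10*, *IL1B*, *KRT18*, *KRT8*, *PDGFRB*, *EPCAM*, the endothelial markers and the genes counted nearly alone in siLTBP2 replicate 2 were named after their values were seen. Replicates differed beyond sampling noise (chi-square per degree of freedom 28.0 to 55.0). The steps were tested on simulated data.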

Additional observations from a re-analysis of the deposited data

How the results depend on the processing

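*CD59* and *LTBP2* kept their direction and their call under all 14 alternatives, with log2 fold changes of 0.86 to 0.95 and -1.89 to -1.61. The count of complement genes that passed was 1 under every other test, scaling and left-out library, 0 at the study's thresholds, and 3 with no low-count filter, where *C1R* and *C7* joined *CD59*. With no filter and without siLTBP2 replicate 2, an alternative chosen after seeing the data, it was 2. With no filter every gene with a read was tested, all 9 complement genes among them, and 3872 genes passed. Of the 60663 genes 27067 had no read, so the share of 19.3% is not the one to set beside these counts. Of the 48 other complement genes 14 had no read and 5 passed with no filter. In that setting 680 genes of all were deregulated, against 434. The count of all genes that passed, 3261, was 434 at the study's thresholds and 2158 to 2781 with 1 library left out, lowest without siLTBP2 replicate 2. With 1 library left out, deregulated genes numbered 308 to 405, the other complement genes 1 to 3, the inducers 5 to 8 and the GPI anchor genes 3 to 4, with 3 of the last without siNT replicate 1, siLTBP2 replicate 2 or siLTBP2 replicate 3. What causes these shifts was not tested.

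Libraries that share a number deviated together with correlations of 0.30, 0.08 and 0.43, and those with different numbers with -0.39 to 0.10. Of the 6 libraries, 5 correlated best with their own number. The minimum set for taking the numbers as a pairing was 0.1 for each, which 1 did not reach, so the main test has no block. The labels do not state a pairing, and these values do not settle whether there was one. With the replicate block 6131 of the 16920 genes tested passed, so the share of 19.3% holds for the main test only. Of the 6 tested complement genes 4 passed with the block. These were *CD59*, *CD55* (edgeR adjusted p = 0.0046), *C1R* (0.0010) and *C1S* (0.014), and the last 3 moved one way in all 3 same-numbered pairs. Passing too were 6 of the 15 other complement genes tested, 15 of the 26 inducers and 9 of the 28 GPI anchor genes. *VTN* (0.0011) and *CLU* (0.0030) also gained their call with the block. Over the 28 genes refitted under the alternatives, *LTBP2* left out, the call stayed 352 times, was lost 22 times and was gained 15 times. The 1 reversal was of *COLEC10*, which never passed, without siLTBP2 replicate 3, and its log2 fold change was between -0.15 and 0.0012 with 1 library left out. Depth limits *CFB*, *C7* and *SERPING1*, with 19, 41 and 41 reads in all.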
